A study of Rattus norvegicus with 6 samples.

Results

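Smooth muscle and pericyte contractile genes were examined in injured rat sciatic nerve with and without electrical stimulation. The set held 31 named genes of vessel wall cells, of the 33713 genes in the deposited tables, and each was found by its gene name in exactly 1 row. Stimulated nerve (ES) came from female Sprague-Dawley rats aged 8 weeks in which the cut sciatic nerve, retracted to a gap of about 6 mm, received current for 1 h straight away. Control nerve came from rats of the same strain, sex and age with the same injury and no current. In both groups each nerve end was then sutured 2 mm deep into a silicone tube of 10 mm, and tissue was sampled on day 4, with 3 libraries per group. Both groups are therefore injured nerve, and no uninjured nerve was analysed here. The labels do not say which stretch of nerve was taken, nor whether each library is its own animal; the p-values below thus cover the spread among these libraries alone, which may be technical.

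Mural cells wrap the blood vessels of the nerve. Smooth muscle cells surround arterioles and contract, while pericytes sit on capillaries and share only part of the contractile programme. Contraction uses a smooth muscle myosin and alpha-actin, switched on when myosin light chain kinase phosphorylates the light chain and off by a phosphatase. Transcription of many of these genes is known to depend on serum response factor (SRF), which binds the CArG box, together with its coactivator myocardin. Several members are not restricted to vessel walls, since Acta2 and Tagln are also made by myofibroblasts, and Flna, Vcl, Csrp1 and the tropomyosin genes by most adherent cells.

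Every gene of the contractile filament and its regulators had a lower mean level in ES than in control nerve. The mural cell markers among the members were mixed. Of 5 pericyte and mural markers, Aoc3 and Rgs5 were also lower, while Mcam, Cspg4 and Higd1b were not, nor was the intermediate filament gene Synm. Of 15 other mural genes outside the set, 11 had a log2 fold change below 0 and 4 above, with a median of −0.38. Myh11, which encodes the myosin heavy chain of smooth muscle, fell to 82.6 ± 7.86 CPM (counts scaled to library size) in ES nerve, against 135 ± 17.3 CPM in control nerve (SD, n = 3 each). It was the only member called by edgeR's quasi-likelihood test at a Benjamini-Hochberg adjusted p under 0.05, where 0.135% of the 14828 genes tested were called lower and 0.0337% higher. All 31 members passed the filter on low counts. Their median log2 fold change, ES over control, was −0.51, against 0.00 over all genes tested, and 27 of the 31 had a value below 0 and 4 above, against 49.3% and 50.7% of all genes. At an unadjusted p under 0.05, edgeR placed 17 members lower and 0 higher in ES, where 5.94% of all genes were lower and 4.01% higher. In 17 members every ES library lay below every control library, which held for 8.23% of all genes, and in 0 members every ES library lay above, which held for 7.54%. DESeq2 called 11 members lower and 0 higher, against 1.45% and 0.627% of all genes. A log2 fold change of −0.5 or lower was found in 16 members and in 6.52% of all genes. These shares of all genes are also the background for the counts given below for each role and list. In bulk tissue, fewer mural cells, less of these RNAs per cell and changes in the other cells that make them cannot be told apart.

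**Figure D1:**
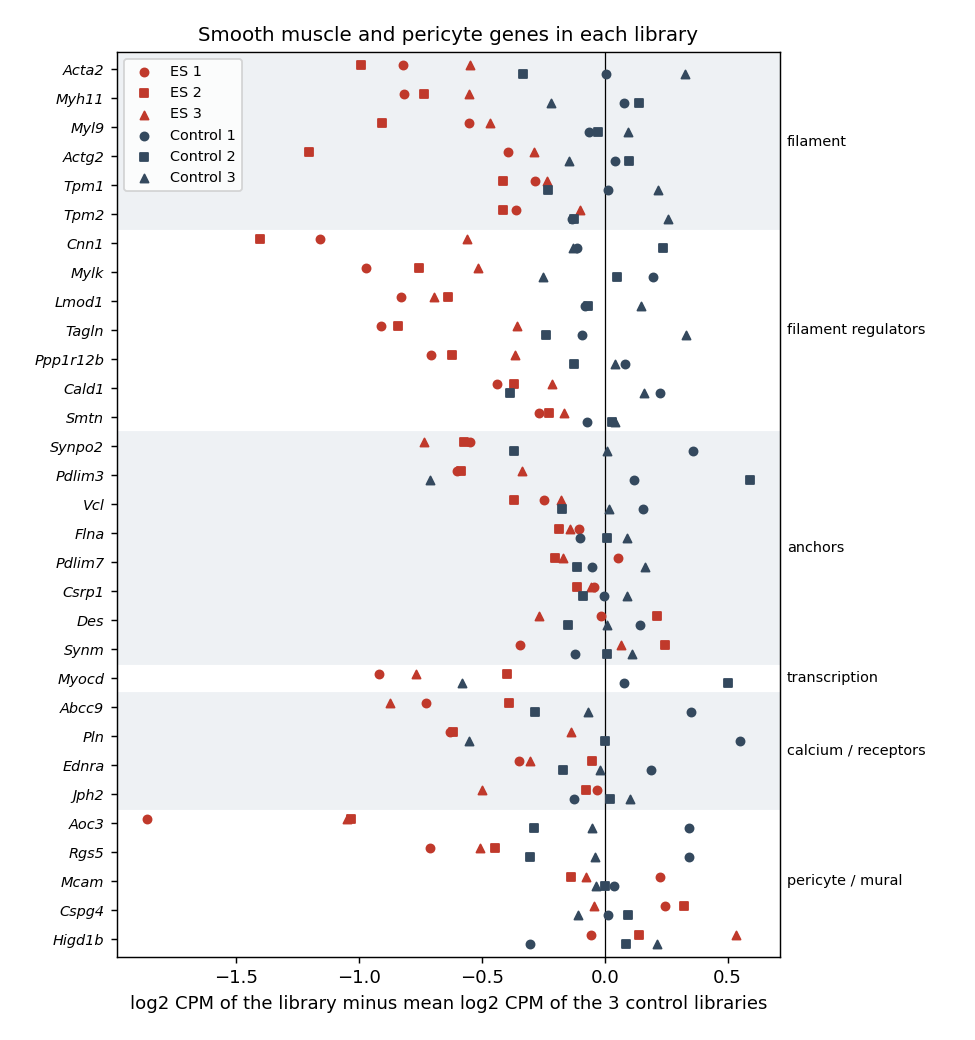
Each row is 1 gene and each point 1 library; the horizontal axis is the log2 CPM of that library minus the mean log2 CPM of the 3 control libraries. In the filament and filament regulator rows the ES points lie left of the control points in 11 of 13 genes, while Des, Synm, Mcam, Cspg4 and Higd1b show both groups on either side of 0.

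One promoter of the set, that of Acta2, is shown because it alone held a match, and only to the looser form of the CArG box described below. A promoter sequence of 250 bases before to 50 after the gene start was given by RefSeq (build GRCr8) for 22 of the 31 members. The Acta2 promoter lies at chr1:241172454-241172753 on the minus strand and is printed 5′ to 3′ with its CArG-like boxes in capitals.
Acta2: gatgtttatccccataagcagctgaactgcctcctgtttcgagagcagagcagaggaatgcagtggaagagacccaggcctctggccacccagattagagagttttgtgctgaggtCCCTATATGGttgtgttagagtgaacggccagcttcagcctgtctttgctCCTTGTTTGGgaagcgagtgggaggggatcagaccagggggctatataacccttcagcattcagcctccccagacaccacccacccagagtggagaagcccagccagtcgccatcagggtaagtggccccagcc
The first box begins 134 bases before the gene start and the other 84 bases before it, and each has 1 G or C among its 6 core bases, where the CArG box has only A or T. The CArG box reads the same on both strands, so 1 search covers both. Without any mismatch it was found in 0 of the 22 member promoters and in 1.64% of the 33469 promoters of the table. With up to 1 G or C in the core, a looser form chosen after the strict search, it was found in 1 of the 22, that of Acta2, and in 9.42% of all promoters. No match says only that these letters are not in this window, and the promoters of Myh11, Tagln, Myl9, Lmod1, Myocd, Aoc3, Mcam, Pdlim3 and Higd1b were not used here.

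Among the 6 genes of the contractile filament, all lay below 0 in log2 fold change, with a median of −0.61. Myh11 (ENSRNOG00000057880, chromosome 10, 764421 to 859184 in the deposited coordinates) had 76.0, 80.6 and 91.3 CPM in the ES libraries, in the order of their replicate numbers, against 142, 148 and 115 CPM in the control libraries, a sequence kept below. The groups did not overlap, and the log2 fold change was −0.71 ± 0.11 (SE), 1.63-fold lower in ES (edgeR adjusted p = 0.0417). That call depended on single libraries, since the edgeR adjusted p was 0.141 without ES 1, 0.0781 without ES 2, 0.168 without control 1 and 0.0721 without control 3, with log2 fold changes between −0.81 and −0.64. Myh11 stayed called without ES 3 (edgeR adjusted p = 0.0379) and without control 2 (edgeR adjusted p = 0.0288). The adjusted p ran from 2.06e-06 with DESeq2 to 0.184 with limma-trend on FPKM over the 16 alternatives. Acta2 (ENSRNOG00000058039, chromosome 1, 252537615 to 252550394 in the deposited coordinates) encodes the smooth muscle alpha-actin. It was at 172, 153 and 208 CPM in the ES libraries and at 305, 241 and 380 CPM in the control libraries. No ES library reached the lowest control library, and control 3 stood highest. The estimate was −0.80 ± 0.19 (SE) on the log2 scale, at adjusted p-values of 0.225 by edgeR and 2.75e-05 by DESeq2. Myl9, the regulatory light chain of smooth muscle myosin, had 93.0, 72.8 and 98.8 CPM in ES nerve and 131, 134 and 146 CPM in control nerve. Here too the groups were apart, with a fold change of −0.63 ± 0.11 on the log2 scale (edgeR adjusted p = 0.0708). The other 3 genes of this group were Actg2, Tpm1 and Tpm2. Actg2, the gamma-actin of visceral smooth muscle, had a log2 fold change of −0.58 ± 0.22 and rested on 99 to 175 counts in ES and 192 to 228 in control libraries. That fold change was −0.34 without ES 2 and −0.74 without ES 3. The tropomyosin genes Tpm1 and Tpm2 had values of −0.32 ± 0.11 and −0.30 ± 0.13, and in Tpm2 the groups overlapped. These values were −0.20 and −0.15 without control 3. The value of Tpm1 was −0.43 without control 2, and that of Tpm2 was −0.40 without ES 3. Acta2 and Actg2 encode near-identical proteins, as do Tpm1 and Tpm2 over long stretches. Whether reads were shared within these pairs was not tested. Of these 6 genes, edgeR called 1 lower and DESeq2 called 3 lower, against 0.135% and 1.45% of all genes.

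The group of filament regulators and myosin-switching enzymes held 7 genes, all with a log2 fold change below 0 and a median of −0.70. By edgeR 0 of them were called, and 6 were lower at an unadjusted p under 0.05, against 5.94% of all genes. DESeq2 called 4 of them lower, against 1.45% of all genes. Lmod1, a leiomodin that nucleates actin filaments in smooth muscle, was at 11.1, 12.7 and 12.2 CPM in ES libraries and at 18.7, 18.9 and 21.9 CPM in control libraries. Its libraries lay close together within each group, and its log2 fold change was −0.72 ± 0.12 (edgeR adjusted p = 0.0537; DESeq2 adjusted p = 0.00192). Ppp1r12b, a targeting subunit of myosin phosphatase, stood at 41.6, 44.2 and 52.8 CPM in ES nerve and at 71.9, 62.3 and 69.9 CPM in control nerve. Mylk, the myosin light chain kinase that opposes this phosphatase, had 41.1, 47.7 and 56.3 CPM in ES libraries and 92.4, 83.4 and 67.7 CPM in control libraries. Both the kinase and the phosphatase subunit were thus separated between the groups in the same direction, with log2 fold changes of −0.75 ± 0.14 for Mylk (edgeR adjusted p = 0.103) and −0.56 ± 0.10 for Ppp1r12b (edgeR adjusted p = 0.0772). Cnn1, the calponin that restrains actin-activated myosin, had the lowest log2 fold change of these 7, at 4.68, 3.95 and 7.09 CPM in ES and 9.67, 12.3 and 9.57 CPM in control libraries, 2.01-fold lower in ES (log2 fold change −1.01 ± 0.23, edgeR adjusted p = 0.144). Tagln, or transgelin, an actin-binding protein, was at 237, 249 and 348 CPM in ES nerve and at 419, 379 and 561 CPM in control nerve. Its spread within the groups was wide, and its edgeR adjusted p was 0.327 at a log2 fold change of −0.70 ± 0.21. In the deposited coordinates Tagln overlaps Sidt2 by 1019 bases on the same strand, and Sidt2 had a log2 fold change of −0.03. Cald1, or caldesmon, was at 214 to 250 CPM in ES and 222 to 339 CPM in control libraries, with overlap. Smtn, or smoothelin, did not overlap between the groups but differed little, at 72.9 ± 2.61 CPM in ES and 84.9 ± 3.56 CPM in control nerve (SD, n = 3 each).

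**Figure D2:**
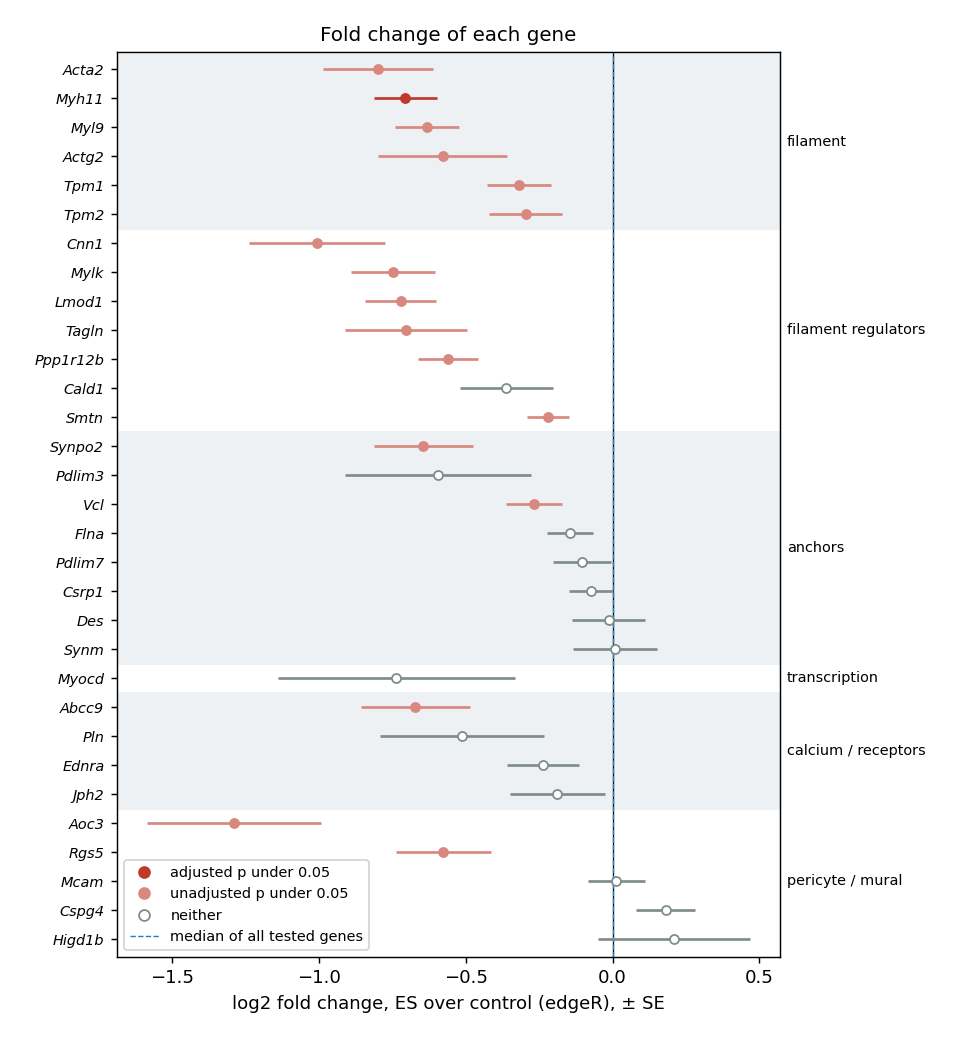
Points are log2 fold changes of each gene, ES over control, with bars of 1 SE, grouped by role; the dashed line is the median of all genes tested. Myh11 is the only filled dark point, and all 6 filament genes and all 7 regulators lie left of 0, while Mcam, Cspg4 and Higd1b lie at 0.01, 0.18 and 0.21.

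Proteins that anchor the filaments to membranes, Z-discs or dense bodies and the intermediate filament genes gave a median of −0.12 on the log2 scale over 8 genes. Here edgeR called 0 and 2 had an unadjusted p under 0.05; by DESeq2, 1 was called, Synpo2. Synpo2, an actin-bundling protein of muscle also named myopodin, was at 19.5, 19.2 and 17.1 CPM in ES libraries and at 36.5, 22.1 and 28.6 CPM in control libraries, with a fold change of −0.65 ± 0.17 on the log2 scale (edgeR adjusted p = 0.21). Vcl, or vinculin, which links integrin adhesions to actin, had 229, 210 and 240.3 CPM in ES nerve and 302, 240.7 and 275 CPM in control nerve. The highest ES library and the lowest control library of Vcl nearly touched, and the log2 fold change was −0.27 ± 0.09. Pdlim3, an actinin-associated LIM protein, was low, at 48 to 52 counts in ES and 41 to 99 counts in control libraries. The most abundant genes of the group were close between the groups: Flna, or filamin A, which crosslinks actin, was at 1101 ± 29.9 CPM in ES and 1218 ± 80.9 CPM in control, and Csrp1, a LIM protein of smooth muscle, at 614 ± 15.3 CPM in ES and 645 ± 39.5 CPM in control (SD, n = 3 each). Des, or desmin, the muscle intermediate filament, stood at 79.9, 93.6 and 67.1 CPM in ES libraries and at 89.1, 72.7 and 81.2 CPM in control libraries, with a log2 fold change of −0.01 ± 0.12. Synm, or synemin, a partner of desmin, had one of 0.01 ± 0.14, and the adaptor gene Pdlim7 one of −0.10 ± 0.10. For these 3 genes the groups overlapped, and their standard errors leave room for differences of about the size seen in Vcl.

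Myocd, which encodes the coactivator myocardin, was near the limit of detection. It had 12, 17 and 12 counts in ES libraries and 23, 29 and 14 counts in control libraries, with an overlap and a fold change of −0.74 ± 0.40 on the log2 scale (edgeR adjusted p = 0.58). Without control 2 the fold change of Myocd was −0.46, and without control 3 it was −0.97. Other genes of the SRF axis were examined as a list of 14, of which 13 were tested. By edgeR 0 of these 13 were called and 0 had an unadjusted p under 0.05. Their median log2 fold change was −0.15, and 0 were called by DESeq2. Srf itself was at 70.9, 61.3 and 74.6 CPM in ES libraries and at 69.3, 75.6 and 77.6 CPM in control libraries, with overlap, and is named after its value was seen. The members with the lowest unadjusted p were Gata6, Klf4 and Elk4, with log2 fold changes of −0.89 ± 0.41, −0.67 ± 0.30 and −0.15 ± 0.08. Klf4, which opposes smooth muscle differentiation, was at 20.9, 39.9 and 26.9 CPM in ES libraries and at 56.3, 34.9 and 48.7 CPM in control libraries, so ES 2 lay above the lowest control library.

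Calcium handling and receptor genes held 4 members, all with a log2 fold change below 0 and a median of −0.37. By edgeR 0 were called and 1 had an unadjusted p under 0.05, Abcc9, which was also the 1 gene of the group that DESeq2 called. Abcc9 encodes SUR2, the sulfonylurea receptor subunit of the vascular ATP-sensitive potassium channel. It was at 27.1, 34.3 and 24.5 CPM in ES libraries and at 57.2, 36.8 and 42.8 CPM in control libraries, which did not overlap (log2 fold change −0.67 ± 0.19, edgeR adjusted p = 0.263). Kcnj8, the pore subunit of the same channel, was at 17.9, 17.3 and 12.7 CPM in ES nerve and at 23.8, 18.8 and 20.5 CPM in control nerve, again without overlap (log2 fold change −0.40 ± 0.15, edgeR adjusted p = 0.398), and is named after its values were seen. Ednra, the endothelin receptor of smooth muscle, was at 27.0 ± 3.06 CPM in ES and 31.9 ± 4.00 CPM in control nerve, with overlap. Pln, or phospholamban, which inhibits the calcium pump of the sarcoplasmic reticulum, and Jph2, or junctophilin 2, which ties that reticulum to the plasma membrane, also overlapped. The log2 fold change of Pln was −0.51 ± 0.28, −0.19 without control 1 and −0.75 without control 3. That of Jph2 was −0.19 ± 0.16, −0.05 without ES 3 and −0.27 without ES 1. Pln lies within the span of Cep85l on the opposite strand in the deposited coordinates, and Cep85l had a log2 fold change of −0.41. Whether their exons overlap was not tested, and the strand setting of the counts is not given in the sources used here.

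Pericyte and mural surface or marker genes did not share one direction, and their median was 0.01 on the log2 scale over 5 genes. By edgeR 0 were called; the 2 with an unadjusted p under 0.05 were Aoc3 and Rgs5, both lower in ES, and DESeq2 called both. Aoc3, the vascular adhesion protein and amine oxidase of smooth muscle that fat cells also make, was at 46.9, 83.4 and 82.3 CPM in ES libraries and at 216, 139 and 164 CPM in control libraries. It had the largest difference of the 31 members, 2.44-fold lower in ES (log2 fold change −1.29 ± 0.30, edgeR adjusted p = 0.263). In the deposited coordinates the locus AC123346.1 overlaps Aoc3 by 7944 bases on the same strand. Summed over the libraries it had 84 counts, against 11622 for Aoc3, and its log2 fold change was −0.33. Rgs5, a regulator of G protein signalling typical of pericytes, had 48.5, 58.3 and 55.8 CPM in ES nerve and 101, 64.3 and 77.4 CPM in control nerve. Its fold change was −0.58 ± 0.16 on the log2 scale (edgeR adjusted p = 0.269), −0.38 without control 1 and −0.72 without control 2. The remaining 3 genes of the group had log2 fold changes above 0, at unadjusted p-values that did not pass. Mcam, the adhesion molecule CD146, was at 319, 249 and 259 CPM in ES libraries and at 280.2, 273 and 266 CPM in control libraries, so its highest and its lowest values were both in ES. Cspg4, the NG2 proteoglycan, which pericytes share with other cells of the nerve, had 105, 111 and 86.0 CPM in ES libraries and 89.5, 94.7 and 82.1 CPM in control libraries. With 0.18 ± 0.10 on the log2 scale, its adjusted p by edgeR was 0.593. Higd1b, a pericyte-enriched gene, was low, with 53, 60 and 72 counts in ES and 43, 53 and 59 counts in control libraries.

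**Figure D3:**
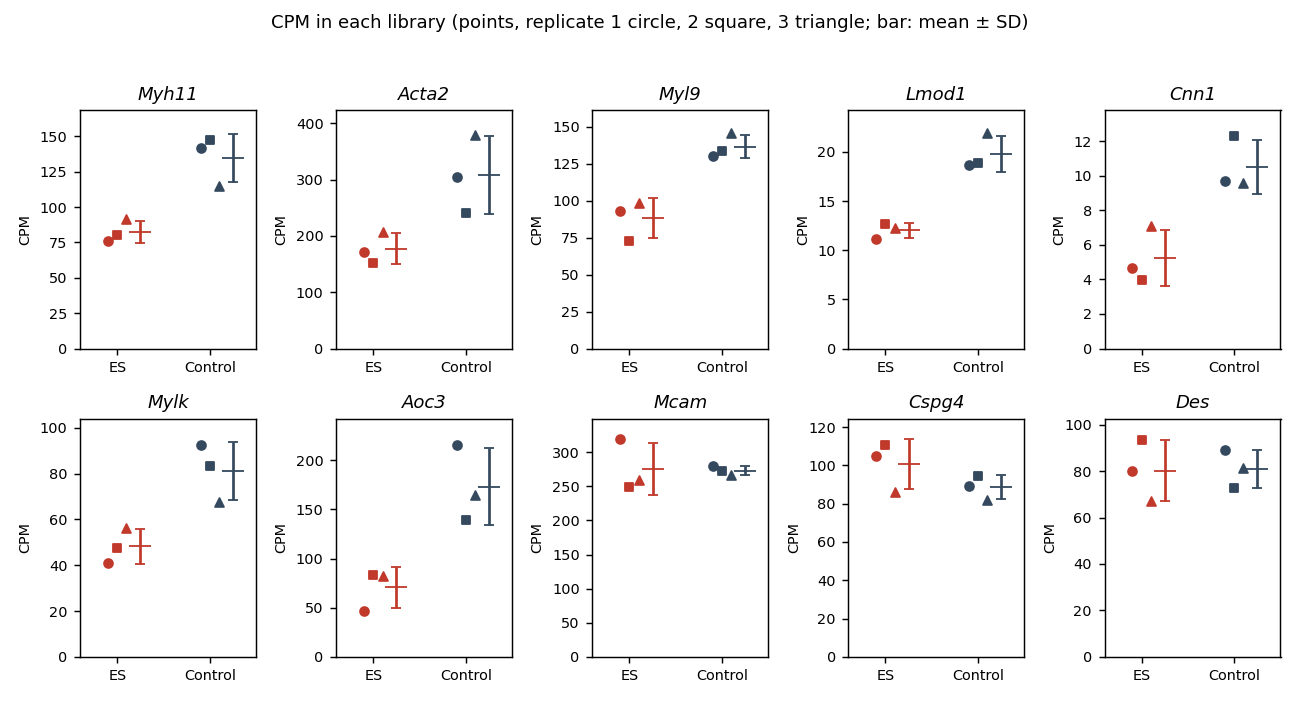
CPM of 10 of the genes in each ES and control library, with the mean and SD of each group at the right of its points; each vertical axis starts at 0. Myh11, Acta2, Myl9, Lmod1, Cnn1, Mylk and Aoc3 show no overlap between the groups, while Mcam, Cspg4 and Des do.

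Levels per gene length, in the deposited FPKM, ranged widely within the set. Csrp1 had 351 FPKM in ES and 368 FPKM in control nerve as group means, Tagln 222 FPKM in ES and 360 FPKM in control, and Acta2 127 FPKM in ES and 221 FPKM in control. In ES nerve the order began with Csrp1, Tagln, Flna and Acta2, and in control nerve with Csrp1, Tagln, Acta2 and Flna. Flna ran from 127 to 134 FPKM and Acta2 from 109 to 149 FPKM in the ES libraries, so these neighbours did not differ there beyond their spread. Tagln and Csrp1 likewise overlapped in control nerve, at 301 to 444 and 347 to 390.2 FPKM. In ES nerve they did not, at 189 to 278 FPKM for Tagln and 341 to 357 FPKM for Csrp1. Cnn1 took place 27 of 31 in ES nerve and place 22 in control nerve, Aoc3 place 15 in ES and place 12 in control, and Higd1b place 21 in ES and place 27 in control. Myh11 stood at 12.3 FPKM in ES and 20.04 FPKM in control nerve, far below Acta2 in both. Myocd was last in both groups, at 0.165 FPKM in ES and 0.275 FPKM in control.

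Single libraries took different places for different roles. All 6 filament genes and 6 of 7 regulators were highest among ES libraries in ES 3, and 5 of the 6 filament genes were lowest in ES 2. Of the control libraries, control 3 was highest for 4 of the 6 filament genes. Control 1 was highest for 3 of 4 calcium and receptor genes and for 3 of 5 pericyte and mural genes, among them Aoc3 and Rgs5. Summed over the 6 filament genes, ES 1, ES 2 and ES 3 had 747, 679 and 835 CPM, against 1072, 962 and 1225 CPM in control 1, control 2 and control 3. With ES 2 left out the median log2 fold change of the 31 members was −0.34, against −0.51 with all libraries, and 14 members had an unadjusted p under 0.05. Over all 6 fits that left out 1 library, that count ran from 14 to 18 and the median from −0.57 to −0.34. Among all genes, 4.18% to 7.63% were lower at that threshold in these 6 fits.

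Genes of related function outside the 31 were examined as lists of their own. Of 15 other mural genes, edgeR called 0, and at an unadjusted p under 0.05 placed 7 lower and 1 higher, against 5.94% and 4.01% of all genes. By DESeq2, 2 were called lower, and the median log2 fold change was −0.38. Rgs4, a regulator of G protein signalling, was at 7.53, 13.4 and 11.4 CPM in ES libraries and at 26.5, 18.0 and 19.1 CPM in control libraries (log2 fold change −0.98 ± 0.23, edgeR adjusted p = 0.187). Pdgfrb, the receptor that recruits pericytes to vessels, had a log2 fold change of −0.38 ± 0.10 and Gucy1b1, a subunit of the nitric oxide receptor, one of −0.60 ± 0.18. Contraction signalling genes had a median of −0.08 over 18 tested genes. By edgeR 0 were called and 1 had an unadjusted p under 0.05, Itpr1, the store calcium release channel, at 19.6, 29.1 and 23.5 CPM in ES and 41.3, 33.7 and 35.4 CPM in control libraries; DESeq2 called the same gene. Pde5a and Cacna1c, the next of that list, had values of −0.31 ± 0.14 and −0.28 ± 0.14. Rhoa and both Rock genes, which sensitise the filament to calcium, overlapped between the groups, and they are named after their values were seen.

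Receptors for vasoactive signals had a median of −0.34 over 14 tested genes. By edgeR 0 were called and 4 were lower at an unadjusted p under 0.05; by DESeq2 0 were called. Ednrb, the second endothelin receptor, was at 34.3, 33.3 and 34.4 CPM in ES libraries and at 42.0, 42.7 and 42.2 CPM in control libraries. Both groups were narrow and lay apart, with a fold change of −0.31 ± 0.08 on the log2 scale (edgeR adjusted p = 0.184). Npr1, the natriuretic peptide receptor, had a value of −0.38 ± 0.10, and Adra2b, an adrenergic receptor present at under 2 CPM in every library, one of −1.20 ± 0.43. Non-muscle cytoskeletal genes, the counterparts of the contractile ones in other cells, had a median of −0.06 over 15 genes, with 0 called by edgeR; at an unadjusted p under 0.05, 2 were lower, and DESeq2 called 2 lower. The pair with the lowest p was Myh10, a non-muscle myosin, and Actn1, an actinin, with log2 fold changes of −0.28 ± 0.07 and −0.37 ± 0.11. Tpm3, a tropomyosin of non-muscle cells, was at 520, 521 and 542 CPM in ES libraries and at 472, 477 and 503 CPM in control libraries (log2 fold change 0.12 ± 0.07). Actb, the beta-actin gene, was at 4201, 3908 and 4217 CPM in ES and 4131, 3938 and 4244 CPM in control libraries, and is named after its values were seen.

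Markers of other cell types were measured in the same libraries. Schwann cell markers were abundant, as in nerve, with a summed level of 10445 to 11069 CPM in ES and 8095 to 10607 CPM in control libraries over 7 genes. Their median was 0.20, with 6 of 7 above 0; edgeR called 0, placing 2 higher at an unadjusted p under 0.05, and 2 were called higher by DESeq2. Endothelial markers summed to 755 to 793 CPM in ES and 915 to 1027 CPM in control libraries over 11 matched genes, with Cldn5 at 0 in all. Of the 10 tested, all 10 were below 0, with a median of −0.33, and edgeR called Kdr lower. At an unadjusted p under 0.05 edgeR placed 7 of these 10 lower, and DESeq2 called 4 lower. The 12 adipocyte markers summed to 264 to 932 CPM in ES and 1739 to 2220 CPM in control libraries, and all 12 had a log2 fold change below 0, with a median of −2.19. Of these, edgeR called 1 lower, Slc7a10 (fold change of −3.66 on the log2 scale, adjusted p = 0.0366), and 4 were called lower by DESeq2. ES 1 had the lowest and control 1 the highest adipocyte sum, and the same libraries had the lowest and the highest Aoc3. The adipocyte sum and Aoc3 both differed between the groups, and how they relate was not tested. Adipocyte sums were 1817 CPM in control 2 and 1739 CPM in control 3, where Aoc3 was at 139 and 164 CPM. In ES 2 and ES 3 the sums were 932 and 517 CPM, with Aoc3 at 83.4 and 82.3 CPM. Fibroblast markers summed to 21336 to 24155 CPM in ES and 24258 to 33129 CPM in control libraries, with 10 of 11 below 0, and the 9 matched macrophage markers to 1182 to 1509 CPM in ES and 963 to 1086 CPM in control libraries, with all 9 above 0. By edgeR 0 of either list were called, with 4 fibroblast genes lower and 5 macrophage genes higher at an unadjusted p under 0.05, against 3 and 4 called by DESeq2. The 5 perineurial genes summed to 1038 to 1326 CPM in ES and 1228 to 1231 CPM in control libraries, with Lypd2 at 0. Skeletal muscle fibre markers matter because fibres share Des, Pln, Jph2, Pdlim3 and Synpo2. The 15 matched genes summed to 15.4 to 20.8 CPM in ES and 22.5 to 32.4 CPM in control libraries; Mb was at 0 in all, and Ckm reached at most 0.24 CPM. Of the 5 tested, with a median of −0.69, edgeR and DESeq2 called 0, while 3 were lower and 1 higher at an unadjusted edgeR p under 0.05. Those lower were the myosin gene Myh1, at 3.38, 3.71 and 5.32 CPM in ES and 5.98, 9.31 and 4.75 CPM in control libraries, the troponin gene Tnnt3, at 2.96, 3.77 and 3.81 CPM in ES and 6.04, 5.64 and 5.33 CPM in control libraries, and the nebulin gene Neb; Mylpf was higher, with 14 to 27 counts in ES and 4 to 12 in control libraries. Per gene length, Tnnt3 was at 2.64 to 3.40 FPKM in ES and 4.72 to 5.37 FPKM in control libraries, Pln at 2.02 to 2.85 FPKM in ES and 2.12 to 4.57 FPKM in control libraries, and Pdlim3 at 1.55 to 1.86 FPKM in ES and 1.43 to 3.53 FPKM in control libraries. These skeletal fibre genes are named after their values were seen. The part of these other cell types in the differences of the contractile genes was not tested.

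**Figure D4:**
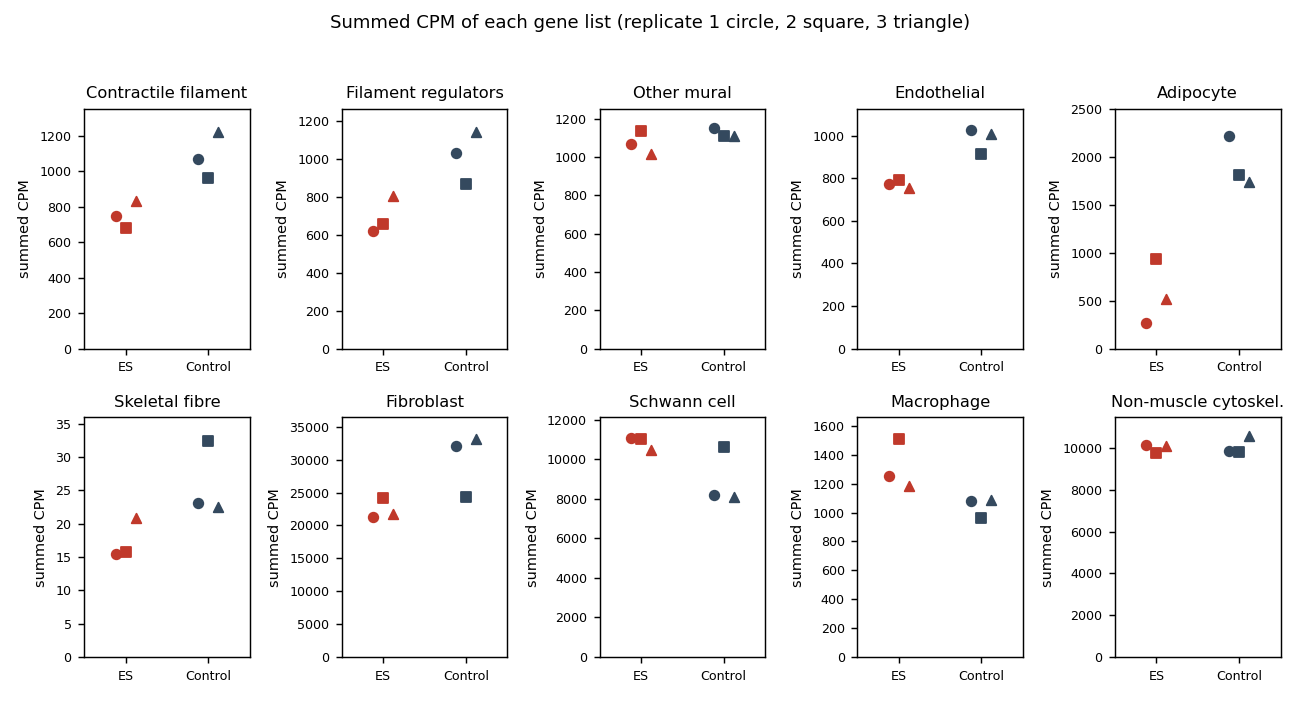
Each panel gives the summed CPM of 1 gene list in every ES and control library, from an axis starting at 0. The 2 contractile panels, the endothelial, adipocyte, skeletal fibre and fibroblast panels have all ES points below the control points, the macrophage panel has them above, and the other mural, Schwann cell and non-muscle cytoskeleton panels overlap. The other mural sum holds the abundant Itga7, at 442 to 450 CPM in ES and 353 to 488 CPM in control libraries. Its log2 fold change was 0.11, while 11 of the 15 genes of that list were below 0 and 4 above.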

How the data were processed

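Per the labels' protocols, sequencing libraries were built from TRIzol-extracted total RNA with the NEBNext Ultra chemistry. The authors deposited whole-number read counts per gene and, for the same 6 libraries, FPKM values, which equal the count divided by gene length and by 1 depth constant per library. Another table, of FPKM group means, was not used further. Neither the aligner nor the counter or its strand setting is given in the sources used here. Build rn7 is named in the submitters' processing notes, but 6890 deposited gene names start with AABR07 and chromosome 1 reaches 282724300, as in an earlier build, so the build of the deposited coordinates is not settled. Library totals ran from 14962319 to 17119144 counts.

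Counts were tested with edgeR 4.0.16 (R 4.3.3; filterByExpr, TMM, robust quasi-likelihood, two-sided, Benjamini-Hochberg over all 14828 genes); 830 loci without a name were kept. SE is the absolute log2 fold change over the square root of F. DESeq2 1.42.0, limma 3.58.1 and other settings were alternatives, and the scripts were tested on simulated data. The members and lists were chosen with earlier results of these data known. Values per library are given for called members and up to 3 members of each role with the lowest unadjusted p, plus others that complete a group; of related lists, up to 3 genes likewise. Whether replicate numbers pair the libraries is not said in the labels, so the replicate block was fitted only as an alternative. Same-numbered deviations from the group means correlated at −0.12, −0.13 and −0.04 over the genes tested. With 3 libraries per group these values cannot exclude a pairing. Chi-square per gene between libraries of 1 group was 11.1 to 19.3, beyond sampling noise, so no pair was merged as a duplicate deposit.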

Additional observations from a re-analysis of the deposited data

How the results depend on the processing

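The count of members called, 1, was 11 with DESeq2, 5 without a filter on low counts, 2 with upper-quartile factors, 0 with limma-voom, with non-robust dispersions and with limma-trend on FPKM at either pseudocount, and 0 to 7 with 1 library left out; the cause was not tested. All of these calls were lower in ES. With the replicate number as a block, 1 member was called, Acta2 in place of Myh11, and 11 genes in the whole table. Over the whole table edgeR called 25 genes, DESeq2 301, limma-voom 2, non-robust dispersions 2, no filter 132, limma-trend 3 and 2 with pseudocounts of 1 and 0.1, and the fits with 1 library left out 2 to 152. The median log2 fold change of the members, −0.51, was −0.33 with limma-trend on log2(FPKM + 1), which shrinks the fold of low genes, and −0.57 to −0.34 with 1 library left out. Counts chosen after seeing the data varied less: 14 to 18 members were lower at an unadjusted p under 0.05 and 27 or 28 had a log2 fold change below 0 in every alternative. Among all genes, 4.18% to 7.63% were lower at that unadjusted threshold over the alternatives. Synm turned to −0.010 with limma-voom and −0.0092 with the replicate block, to −0.0037 and −0.0053 with limma-trend, and lay between −0.12 and 0.16 with 1 library left out. Des lay between −0.13 and 0.10 and Mcam between −0.10 and 0.087 with 1 library left out; no other member changed sign. Myocd, Higd1b and Pdlim3 had under 100 counts in every library, which limits their precision.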
